A study of Mus musculus with 9 samples.

Results

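The genes described here are 51 mouse genes for proteins of the motile cilium that were listed apart from the dynein arms, radial spokes, central pair, nexin-dynein regulatory complex and tektins, although a few are known to bind those structures. They were taken from a list of gene symbols by known function, put together with earlier results of these data known, and all 51 were found among the 53379 Ensembl gene identifiers of the count tables. RNA was sequenced from GFP-positive cells, called neural progenitors in GEO's labels. They were sorted at E16.5 from forebrains of C57Bl6DBa2 mice that had been electroporated in utero at E14.5, 2 days before. The 3 groups of 3 libraries received pCAGGS-GemC1 (GemC1 group), a Mcidas plasmid that the labels spell pCAAGS-Mcidas (Mcidas group), or the H2B-GFP reporter (GFP group). The labels join the plasmids by "and/or", so they do not say outright that GemC1 and Mcidas cells also carried H2B-GFP, though all groups were sorted on GFP. The pCAGGS plasmid drives its insert from a strong promoter active in most cell types, and the labels give neither the number of embryos behind a library nor whether libraries of a group came from separate litters. The question given for the series is how GemC1, a geminin-related nuclear protein, starts the multiciliated cell fate, and Mcidas is a relative of GemC1 with a similar known role.

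Motile cilia beat by sliding of microtubule doublets that carry dynein motors. Besides the motors, the axoneme holds proteins that tether dyneins to the doublet, line the inside of the microtubules, supply nucleotides, or carry signals to the motors. Ependymal cells, which line the brain ventricles and move cerebrospinal fluid, grow such cilia, as do choroid plexus, airway and oviduct cells, and many of the same proteins build the sperm flagellum. Transcription of these genes in multiciliated cells is known to depend on the forkhead factor Foxj1 and on RFX factors, which bind a paired DNA site called the X-box.

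Total counts ran from 22914704 to 41163917 per library, so that 3 counts corresponded to 0.0737 to 0.13 CPM, the unit used for levels below, which scales counts to the depth of the library after TMM normalisation. The introduced genes followed the labels. Gmnc, the gene of GemC1, stood at 291, 223 and 317 CPM in the GemC1 libraries, 0.259, 0 and 0.26 CPM in the Mcidas libraries and 0, 0 and 0 CPM in the GFP libraries, and Mcidas at 76.8, 60.2 and 73.1 CPM in the GemC1 libraries, 388, 508 and 597 CPM in the Mcidas libraries and 0.647, 0.663 and 0.69 CPM in the GFP libraries. Mcidas thus was also counted in the GemC1 group, where the labels name no Mcidas plasmid, and counts per gene do not separate plasmid from chromosomal transcripts. The 9 radial glia markers summed to 1239 to 1413 CPM in GemC1, 879.5 to 1133 CPM in Mcidas and 849.7 to 1100 CPM in GFP, while 6 markers of excitatory neurons summed to 3123 to 3491, 3309 to 3778 and 3817 to 4499 CPM in the same groups. Markers of progenitors and of neurons were thus both abundant in every group.

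The members were sparsely transcribed in the GFP group and broadly transcribed after either factor. Of the 51 genes, 47, 45 and 46 reached 1 CPM in the GemC1 libraries and 41, 48 and 48 in the Mcidas libraries, against 18, 19 and 17 in the GFP libraries. Their summed level was 678, 614 and 714 CPM in GemC1, 520.3, 965 and 1124 CPM in Mcidas, and 179, 177 and 163 CPM in GFP. The GemC1 sum averaged 669 ± 50.4 CPM, the Mcidas sum 870 ± 313 CPM and the GFP sum 173.0 ± 8.53 CPM (SD, n = 3 each), and every GemC1 and Mcidas library lay above every GFP library. In bulk RNA, more cells that transcribe a gene and more RNA per cell cannot be told apart.

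Each gene was tested with edgeR's quasi-likelihood test in a fit over all genes. This test gives no SE, so the SE of a log2 fold change is its size divided by the square root of the test's F value. Such an SE is rough for members with few GFP counts. Adjusted p-values are Benjamini-Hochberg values, and "rose" and "fell" mean that this value was under 0.05. Of the 51 members, 49 passed the filter on low counts. In GemC1 against GFP, 43 members rose and 0 fell, where 3.86% of all 19572 genes tested rose and 1.32% fell. In Mcidas against GFP, 41 rose and 0 fell, where 4.03% of all genes rose and 0.327% fell. All 49 tested members had a positive log2 fold change in each comparison, so none was lower at an unadjusted p under 0.05 either, and DESeq2 called 0 lower and 44 higher in each comparison. Both comparisons use the same 3 GFP libraries. The median log2 fold change of the tested members was 3.42 in GemC1 and 4.0 in Mcidas, beside medians of -0.00 and -0.03 over all genes tested. In GemC1 the 3 libraries lay above all 3 GFP libraries for 44 tested members, where 13.2% of all genes did so, and in Mcidas for 45, where 10.7% did. None lay wholly below, where 11.7% and 8.87% of all genes did in GemC1 and Mcidas. Members with few or no GFP counts passed the filter through the GemC1 and Mcidas groups. They could hardly fall or lie below GFP, so the absence of lower members says little about them. Leaving out GFP replicate 2 moved the fitted fold of 14 called members by over 1.5 times in each comparison, and every other library moved at most 4.

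**Figure D1:**
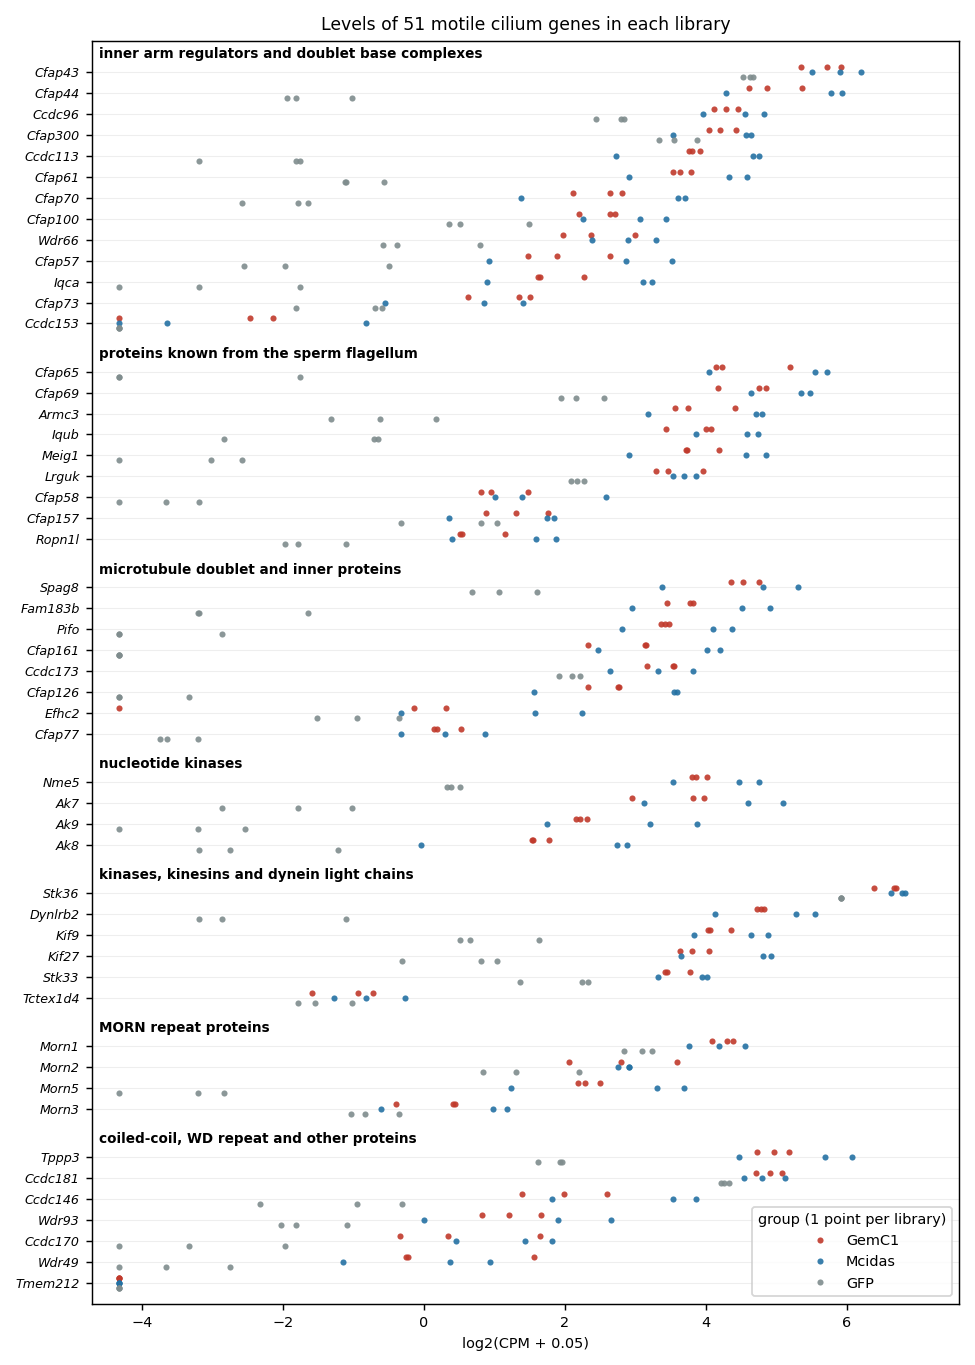
Level of each of the 51 members in each library, as log2(CPM + 0.05), grouped by role. Each point is 1 of 9 libraries. Cfap43, Stk36 and Ccdc181 have GFP points close to those of the GemC1 and Mcidas groups, Cfap161 lies at 0 in all GFP libraries, and Tmem212 lies at 0 in all 9 libraries.

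Promoter sequences are shown because most members rose after both factors and RFX factors are known to act at such genes. RefSeq promoter windows of build GRCm38.p6, from 250 bases before to 50 after the most upstream RefSeq start of a gene, were available for 44 of the 51 members. Shown here are the 100 bases before the start of Cfap44, Iqca and Lrguk, which hold a whole X-box pattern there, of Cfap161 and Fam183b, which hold repeated half-sites, and of Dynlrb2, the member with the highest level per exon length in GemC1 and in Mcidas. Each is written 5′ to 3′ on the gene's strand, and capitals mark matches to the RFX half-site or the X-box pattern.
Cfap44 (chr16:44394699-44394798, plus strand): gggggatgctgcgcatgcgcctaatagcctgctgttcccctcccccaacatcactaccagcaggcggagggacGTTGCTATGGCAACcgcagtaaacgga
Iqca (chr1:90153437-90153536, minus strand): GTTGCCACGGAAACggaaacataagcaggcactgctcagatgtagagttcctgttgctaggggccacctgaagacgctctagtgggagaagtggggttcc
Lrguk (chr6:34029348-34029447, plus strand): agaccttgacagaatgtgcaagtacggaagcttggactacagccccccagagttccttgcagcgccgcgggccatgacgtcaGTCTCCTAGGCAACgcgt
Cfap161 (chr7:83794840-83794939, minus strand): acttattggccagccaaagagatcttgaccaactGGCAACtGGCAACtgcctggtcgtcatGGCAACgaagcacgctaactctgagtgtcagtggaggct
Fam183b (chr11:58801961-58802060, minus strand): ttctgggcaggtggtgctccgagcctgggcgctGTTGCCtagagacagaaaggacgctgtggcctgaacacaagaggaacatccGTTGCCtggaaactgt
Dynlrb2 (chr8:116504915-116505014, plus strand): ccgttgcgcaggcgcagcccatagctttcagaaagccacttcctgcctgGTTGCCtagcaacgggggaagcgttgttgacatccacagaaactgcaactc

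Patterns were searched on both strands. The RFX half-site was GTTGCC, the X-box pattern GTTNCC and GNNAC with 3 bases of any kind between them, the forkhead pattern GTAAACA, and the E2F pattern TTTCCCGC or TTTGGCGC. A half-site can lie inside an X-box match, so the shares of these patterns overlap. Pairs spaced otherwise were not counted as X-box matches, though Dynlrb2 and Fam183b hold GTTGCC and GNNAC with 2 bases between them. The half-site was found in 22 of 44 members (50%), against 12.8% of 17486 protein-coding genes and 12.7% of all 27018 genes with a window. The X-box pattern was found in 8 members (18.2%), against 2.29% of protein-coding genes, and the forkhead pattern in 5 (11.4%), against 2.93%. E2F patterns, looked for because GemC1 and Mcidas are known to act with E2F factors, were found in 1 member, Iqub (2.27%), against 2.1%. The 8 members with an X-box match were Ak9, Cfap44, Cfap61, Iqca, Kif9, Lrguk, Morn1 and Spag8, and the 5 with a forkhead match were Ak7, Ccdc170, Cfap43, Iqub and Wdr49. In Cfap161, Fam183b and Cfap44, 2 or 3 half-sites lie before the start, and in Cfap161 all 3 fall between 66 and 34 bases before it. The half-site was found in 18 of 36 members that rose in both comparisons and in 4 of the 8 others, and the X-box pattern in 8 of 36 and 0 of 8. These matches describe letters in a window and not measured binding. Some windows also lie inside the gene as placed by GENCODE, the source of gene positions here. The 100 bases before the RefSeq start of Wdr49 are at 75431238 to 75431337, within its GENCODE gene (75274988 to 75482156). Those of Cfap43 are at 47837362 to 47837461, within 47736857 to 47919287, so their forkhead matches need not lie at the start of the transcripts counted.

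**Figure D2:**
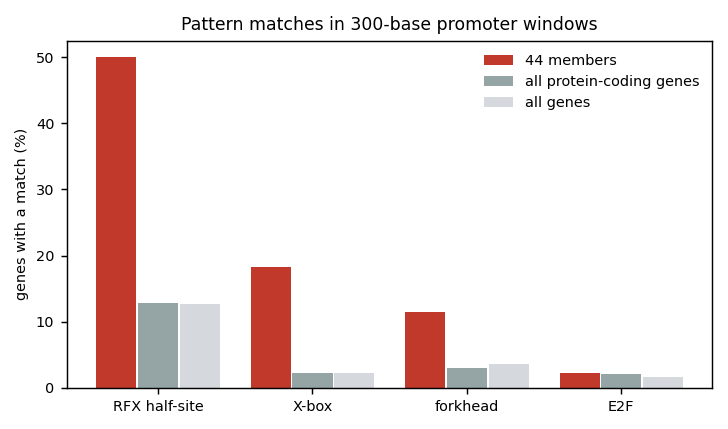
Share of genes whose 300-base promoter window holds each pattern, in percent, for 44 members, all protein-coding genes and all genes with a RefSeq window. The members' bar is the tallest for the half-site (50%, 12.8% and 12.7%) and the X-box (18.2%, 2.29% and 2.2%), and the 3 bars are close for E2F (2.27%, 2.1% and 1.63%).

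A group of 13 holds proteins that regulate inner dynein arms or sit at the base of spokes and linkers. It also holds Cfap70 of the outer arm base and Cfap300 of dynein arm assembly, and 12 of the 13 were tested. Of these 11 rose in GemC1 and 10 in Mcidas, with median log2 fold changes of 3.04 and 3.59. Cfap43 and Cfap44 encode partners that tether an inner arm dynein to the doublet in Chlamydomonas and Tetrahymena. Cfap44 (ENSMUSG00000071550, chromosome 16, 44394796 to 44482428) had 24.4, 29.3 and 41.2 CPM in the GemC1 libraries, 19.6, 54.6 and 61.2 CPM in the Mcidas libraries and 0.235, 0.442 and 0.21 CPM in the GFP libraries. The GemC1 and Mcidas libraries all lay above the GFP libraries, with log2 fold changes of 6.69 ± 0.53 in GemC1 (SE, adjusted p = 2.31e-05) and 7.19 ± 0.53 in Mcidas (adjusted p = 9.43e-06). Its partner Cfap43 (ENSMUSG00000044948, chromosome 19, 47736857 to 47919287) had 53, 40.9 and 60.5 CPM in the GemC1 libraries, 45.5, 60.0 and 73.3 CPM in the Mcidas libraries and 25.6, 23 and 24.7 CPM in the GFP libraries. Cfap43 was already transcribed in the GFP group and rose far less, by 1.08 ± 0.17 in GemC1 (SE, adjusted p = 0.00256) and 1.29 ± 0.17 in Mcidas (adjusted p = 0.000495) on the log2 scale. The call of Cfap43 in GemC1 was lost when a 1.5-fold minimum was tested (adjusted p = 0.0698).

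Cfap61 and Wdr66 (also called Cfap251) belong to the calmodulin- and spoke-associated complex of Chlamydomonas, and Cfap57 anchors inner arms there. Cfap61 averaged 12.6 ± 1.1 CPM in GemC1, 17.2 ± 8.63 CPM in Mcidas and 0.486 ± 0.124 CPM in GFP (SD, n = 3 each). The log2 fold changes of Wdr66 were 2.46 ± 0.41 and 2.86 ± 0.41 (SE) in GemC1 and Mcidas, and those of Cfap57 were 3.61 ± 0.71 in GemC1 and 4.31 ± 0.72 in Mcidas. Without GFP replicate 2 Wdr66 was at 3.08 in GemC1 and 3.48 in Mcidas and Cfap57 at 4.66 in GemC1 and 5.37 in Mcidas, and without Mcidas replicate 2 Cfap57 was at 3.72 in Mcidas. The Cfap57 calls were lost without the low-count filter (adjusted p = 0.109 in GemC1 and 0.0829 in Mcidas), and that in GemC1 also without GFP replicate 3. Ccdc113 and Ccdc96 form a complex near a radial spoke in Tetrahymena. Ccdc113 had 15.1, 13.5 and 13.9 CPM in the GemC1 libraries, 6.59, 26.9 and 25.4 CPM in the Mcidas libraries and 0.235, 0.246 and 0.06 CPM in the GFP libraries, and Ccdc96 had 19.6, 21.9 and 17.3 CPM in the GemC1 libraries, 15.6, 23.5 and 28.3 CPM in the Mcidas libraries and 5.41, 6.88 and 7.11 CPM in the GFP libraries. Again 1 partner was near its floor in GFP and the other was not, and both rose in both comparisons, Ccdc113 by 6.24 ± 0.59 and Ccdc96 by 1.60 ± 0.21 in GemC1.

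Cfap100 and Cfap73 are partners in an inner arm regulating complex of Chlamydomonas. Cfap100 rose by 1.68 ± 0.36 in GemC1 and 2.15 ± 0.36 in Mcidas. Its GemC1 call was lost in 4 of 17 alternatives, with the 1.5-fold minimum and without GemC1 replicate 2, GFP replicate 2 or GFP replicate 3 (adjusted p up to 0.095). Cfap73 had 2.5, 1.49 and 2.79 CPM in the GemC1 libraries, 0.633, 1.77 and 2.6 CPM in the Mcidas libraries and 0.235, 0.614 and 0.57 CPM in the GFP libraries. Cfap73 rose in GemC1 (2.24 ± 0.54, adjusted p = 0.0312), while in Mcidas its value was 1.79 ± 0.54 (adjusted p = 0.103). In Mcidas 3 of 17 alternatives called Cfap73, namely DESeq2, no low-count filter and leaving out Mcidas replicate 1. The 2 factors were not shown to differ in Cfap73 (GemC1 over Mcidas 0.46 ± 0.50, adjusted p = 0.742), and its GemC1 call was lost in 7 of 17 alternatives, with the 1.5-fold minimum and without any 1 of the GFP libraries, GemC1 replicate 1 or 3, or Mcidas replicate 2. Iqca, a linker subunit also known as Drc11, rose by 5.01 ± 0.79 in GemC1 and 5.87 ± 0.79 in Mcidas, and Cfap70, found at the outer arm base, by 4.76 ± 0.61 in GemC1 and 5.42 ± 0.61 in Mcidas. Iqca was at 6.76 in GemC1 and 7.62 in Mcidas without GFP replicate 2. Cfap300, which takes part in dynein arm assembly in humans, had 16.4, 21.6 and 18.4 CPM in the GemC1 libraries, 11.6, 23.8 and 24.9 CPM in the Mcidas libraries and 11.7, 14.7 and 10.1 CPM in the GFP libraries. Its log2 fold changes were 0.63 ± 0.25 in GemC1 (SE, adjusted p = 0.191) and 0.72 ± 0.25 in Mcidas (adjusted p = 0.191). Cfap300 thus passed the test in neither comparison, but without Mcidas replicate 1 it was called in both (adjusted p = 0.0464 in GemC1 and 0.00416 in Mcidas). Ccdc153, a coiled-coil protein also known as Drc12, was at 0 in all GFP libraries, at 0.176, 0 and 0.132 CPM in the GemC1 libraries and at 0, 0.0304 and 0.52 CPM in the Mcidas libraries, too low to be tested.

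Of 8 proteins of the microtubule doublet and its lumen, 7 rose in GemC1 and 7 in Mcidas, with medians of 5.68 and 6.03. Cfap161, a protein inside the doublets of bovine airway cilia (ENSMUSG00000011154, chromosome 7, 83774101 to 83794880), had 0 counts in every GFP library. It stood at 8.81, 8.77 and 5.0 CPM in the GemC1 libraries and 5.5, 16.2 and 18.4 CPM in the Mcidas libraries. Against a floor of 3 counts in each GFP library it was at least 89.7-fold higher in GemC1 and at least 159-fold higher in Mcidas, and both calls passed (adjusted p = 8.67e-05 and 2.99e-05). Pifo, also called pitchfork and known at the base of cilia in mouse embryos, had 10.7, 10.3 and 11.2 CPM in the GemC1 libraries, 7.0, 17.2 and 20.7 CPM in the Mcidas libraries and 0.0882, 0 and 0 CPM in the GFP libraries. With 3 GFP counts in all, its ratio was 385 in GemC1 (95% counting interval 131 to 1871) and 511 in Mcidas (175 to 2483), intervals that cover counting error only. Cfap126, named Flattop and needed for basal body docking in mouse, had 2 GFP counts and ratios of 332 (91.6 to 2751) and 455 (126 to 3762). The GFP counts of Pifo came only from GFP replicate 1 and those of Cfap126 only from GFP replicate 2, and without that library no GFP count remained.

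Fam183b, whose human relative is an inner protein of the doublet, had 13.6, 10.8 and 14 CPM in the GemC1 libraries, 7.69, 22.8 and 30.01 CPM in the Mcidas libraries and 0.0588, 0.27 and 0.06 CPM in the GFP libraries, with log2 fold changes of 6.51 ± 0.61 in GemC1 (SE, adjusted p = 5.34e-05) and 7.15 ± 0.61 in Mcidas (adjusted p = 1.72e-05). The values without GFP replicate 2 were 7.67 in GemC1 and 8.32 in Mcidas. Spag8, another inner protein, had 23, 20.5 and 27 CPM in the GemC1 libraries, 10.4, 28.1 and 39.5 CPM in the Mcidas libraries and 3.0, 2.04 and 1.56 CPM in the GFP libraries, with changes of 3.42 ± 0.43 in GemC1 and 3.56 ± 0.43 in Mcidas. Cfap77 and Ccdc173 rose as well, by 4.84 ± 0.61 and 1.35 ± 0.26 in GemC1 and by 4.91 ± 0.61 and 1.25 ± 0.26 in Mcidas. The call of Ccdc173 in Mcidas was lost in 5 of 17 alternatives, with the 1.5-fold minimum and without Mcidas replicate 2 or 3 or GFP replicate 1 or 3, and that in GemC1 in 2, with the 1.5-fold minimum and without GFP replicate 3. The member that did not pass was Efhc2, on the X chromosome, which had 1.2, 0 and 0.855 CPM in the GemC1 libraries, 0.749, 4.69 and 2.94 CPM in the Mcidas libraries and 0.735, 0.467 and 0.3 CPM in the GFP libraries. GemC1 replicate 2 had no Efhc2 count while all GFP libraries did. Its log2 fold changes were 0.45 ± 0.92 in GemC1 (SE, adjusted p = 0.843) and 2.47 ± 0.91 in Mcidas (adjusted p = 0.231). Without GemC1 replicate 1 the GemC1 value was below 0, at -0.21. Efhc2 was called in Mcidas in 1 of 16 alternatives, without GemC1 replicate 2 (adjusted p = 0.0428).

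All 4 nucleotide kinases rose in both comparisons, with medians of 4.81 in GemC1 and 5.57 in Mcidas. Ak7 is an adenylate kinase whose loss causes hydrocephalus and poor ciliary beating in mice. It had 14.1, 7.69 and 15.8 CPM in the GemC1 libraries, 8.67, 24.3 and 34.3 CPM in the Mcidas libraries and 0.0882, 0.442 and 0.24 CPM in the GFP libraries, with log2 fold changes of 5.54 ± 0.62 in GemC1 (SE, adjusted p = 0.00024) and 6.38 ± 0.62 in Mcidas (adjusted p = 6.44e-05). Nme5, of the nucleoside diphosphate kinase family, had 16.2, 14.46 and 13.9 CPM in the GemC1 libraries, 11.6, 22.1 and 27 CPM in the Mcidas libraries and 1.21, 1.25 and 1.38 CPM in the GFP libraries, and its changes were 3.53 ± 0.29 in GemC1 (SE, adjusted p = 1.51e-05) and 3.98 ± 0.29 in Mcidas (adjusted p = 4.46e-06). Nme5 thus had a steady level near 1 CPM in GFP, while Ak7 lay below 0.5 CPM there. Ak8 and Ak9 rose by 4.07 ± 0.77 and 6.10 ± 0.68 in GemC1 and by 4.77 ± 0.77 and 7.05 ± 0.68 in Mcidas. Ak7 was at 6.23 in GemC1 and 7.07 in Mcidas and Ak9 at 7.12 in GemC1 and 8.08 in Mcidas without GFP replicate 2, and Ak8 at 5.18 in GemC1 and 5.88 in Mcidas without GFP replicate 1. The Ak8 call in GemC1 was lost without the low-count filter (adjusted p = 0.0735) and without GFP replicate 2 (adjusted p = 0.0526), and that in Mcidas without the filter (adjusted p = 0.0527). Ak1, the cytosolic adenylate kinase, had 0.20 ± 0.12 in GemC1 and 0.37 ± 0.12 in Mcidas (adjusted p = 0.397 and 0.153).

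Of 6 kinases, kinesins and dynein light chains, 5 rose in each comparison. Dynlrb2 (ENSMUSG00000034467, chromosome 8, 116504974 to 116515915), a roadblock-type light chain of dyneins, had 28.3, 27.4 and 26.5 CPM in the GemC1 libraries, 17.5, 38.9 and 47 CPM in the Mcidas libraries and 0.0882, 0.417 and 0.06 CPM in the GFP libraries. Its log2 fold changes were 7.06 ± 0.50 in GemC1 (SE, adjusted p = 8.48e-06) and 7.39 ± 0.50 in Mcidas (adjusted p = 4.29e-06), and per kilobase of exon it was the most abundant member in both factor groups, at 49.3 CPM per kb in GemC1 and 62.0 CPM per kb in Mcidas against 0.339 CPM per kb in GFP. When GFP replicate 2 was left out its log2 fold changes were 8.46 in GemC1 and 8.79 in Mcidas. Its paralogue Dynlrb1, a light chain of cytoplasmic dynein, had 175, 183 and 162 CPM in the GemC1 libraries, 156, 158 and 145 CPM in the Mcidas libraries and 169.5, 149 and 172 CPM in the GFP libraries, with changes of 0.09 ± 0.08 in GemC1 (SE, adjusted p = 0.626) and -0.09 ± 0.08 in Mcidas (adjusted p = 0.757). Counts for such close relatives can exchange reads if both match, and the counting rule for multiply matching reads is not given in the sources used here.

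Stk36, the Fused kinase, which is needed for motile cilia in mice, was the most abundant member in CPM in every group. It had 104, 83.4 and 102 CPM in the GemC1 libraries, 114, 98.5 and 110.0 CPM in the Mcidas libraries and 60.6, 60.4 and 60.3 CPM in the GFP libraries. Neither factor group overlapped the GFP group, and the rise was small, at 0.67 ± 0.10 in GemC1 (SE, adjusted p = 0.00116) and 0.83 ± 0.10 in Mcidas (adjusted p = 0.000158) on the log2 scale. Both calls were lost against a 1.5-fold minimum (adjusted p = 1 and 0.108). Kif27, a kinesin that binds Stk36, rose by 3.27 ± 0.38 in GemC1 and 4.0 ± 0.38 in Mcidas, while its paralogue Kif7, a Hedgehog pathway kinesin of primary cilia, had 0.11 ± 0.20 in GemC1 and -0.11 ± 0.20 in Mcidas (adjusted p = 0.827 and 0.903). The kinesin-9 gene Kif9 rose by 3.15 ± 0.32 in GemC1 and 3.51 ± 0.33 in Mcidas, and its paralogue Kif6 by 2.37 ± 0.41 in GemC1 and 2.62 ± 0.42 in Mcidas. Stk33, a kinase of the sperm flagellum, rose by 1.53 ± 0.27 in GemC1 and 1.77 ± 0.27 in Mcidas. Exons of 1700095J03Rik on the other strand cover 13.8% of its exon length, and without strand information their reads cannot be told apart. Tctex1d4, a Tctex-type light chain, stayed under 1 CPM in all libraries, with 0.282, 0.474 and 0.559 CPM in the GemC1 libraries, 0.518, 0.365 and 0.779 CPM in the Mcidas libraries and 0.294, 0.442 and 0.24 CPM in the GFP libraries. The groups overlapped, and its changes of 0.42 ± 0.57 in GemC1 and 0.74 ± 0.57 in Mcidas did not pass (adjusted p = 0.748 and 0.697).

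Of 9 proteins known mainly from the sperm flagellum, 8 rose in each comparison, with medians of 4.48 and 4.91. Cfap65, whose loss disrupts the flagellum in mice and humans, had 18.6, 17.6 and 36.6 CPM in the GemC1 libraries, 16.47, 46.9 and 52.6 CPM in the Mcidas libraries and 0, 0.246 and 0 CPM in the GFP libraries. All 10 of its GFP counts came from GFP replicate 2. The fitted log2 fold changes were 7.99 ± 0.81 in GemC1 (SE, adjusted p = 0.000264) and 8.66 ± 0.81 in Mcidas (adjusted p = 0.000109). They rest on that library, since without it no GFP count remained and the fitted values of 12.55 in GemC1 and 13.22 in Mcidas are no measure of the fold. Cfap69, needed in sperm and olfactory cilia of mice, had 28.8, 18 and 27 CPM in the GemC1 libraries, 24.9, 40.9 and 44.8 CPM in the Mcidas libraries and 5.82, 3.81 and 4.41 CPM in the GFP libraries, with changes of 2.40 ± 0.25 in GemC1 and 2.98 ± 0.26 in Mcidas. Iqub, a spoke protein of sperm, had 16.8, 10.7 and 16 CPM in the GemC1 libraries, 14.48, 23.9 and 26.9 CPM in the Mcidas libraries and 0.588, 0.565 and 0.09 CPM in the GFP libraries, with changes of 5.09 ± 0.43 in GemC1 (SE, adjusted p = 2.13e-05) and 5.67 ± 0.43 in Mcidas (adjusted p = 6.24e-06). Meig1, needed for sperm formation in mice, averaged 14.9 ± 2.88 CPM in GemC1, 20.02 ± 11.2 CPM in Mcidas and 0.0638 ± 0.0594 CPM in GFP, and rose by 7.76 ± 0.67 in GemC1 and 8.19 ± 0.67 in Mcidas, or 8.4 in GemC1 and 8.82 in Mcidas without GFP replicate 1.

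Cfap58 had 3 GFP counts in all and ratios over GFP of 75.9 in GemC1 (95% counting interval 25.6 to 371) and 115 in Mcidas (39.0 to 562.0). Its fitted log2 fold changes were 5.46 in GemC1 and 6.17 in Mcidas without GFP replicate 2 and 6.93 in GemC1 and 7.64 in Mcidas without GFP replicate 3, and without Mcidas replicate 3 the Mcidas value was 6.16. Armc3, Ropn1l and Lrguk, also known from sperm, rose by 4.48 ± 0.49, 2.49 ± 0.48 and 1.43 ± 0.20 in GemC1 and by 4.91 ± 0.50, 3.15 ± 0.48 and 1.53 ± 0.20 in Mcidas, and the GemC1 call of Ropn1l was lost without GFP replicate 3 (adjusted p = 0.0544). The member that did not pass was Cfap157, a basal body protein of the mouse described as a Foxj1 target. Cfap157 had 1.8, 3.35 and 2.43 CPM in the GemC1 libraries, 1.24, 3.32 and 3.55 CPM in the Mcidas libraries and 1.71, 2.01 and 0.75 CPM in the GFP libraries, with overlapping groups and changes of 0.76 ± 0.45 in GemC1 (SE, adjusted p = 0.391) and 0.85 ± 0.45 in Mcidas (adjusted p = 0.514).

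Of the 4 MORN repeat proteins, which share a short membrane-occupation motif and are little studied in cilia, 2 rose in each comparison. Morn5 had 4.83, 4.5 and 5.62 CPM in the GemC1 libraries, 2.3, 9.86 and 12.9 CPM in the Mcidas libraries and 0.0588, 0 and 0.09 CPM in the GFP libraries, with changes of 6.62 ± 0.78 in GemC1 (SE, adjusted p = 0.000252) and 7.36 ± 0.78 in Mcidas (adjusted p = 7.69e-05). The Morn5 values were 6.0 in GemC1 and 6.74 in Mcidas without GFP replicate 2, and 7.34 in GemC1 and 8.08 in Mcidas without GFP replicate 3. Morn1 had 21, 19.8 and 17 CPM in the GemC1 libraries, 13.5, 18.3 and 23.4 CPM in the Mcidas libraries and 9.35, 8.55 and 7.11 CPM in the GFP libraries and rose by 1.21 ± 0.20 in GemC1 and 1.14 ± 0.20 in Mcidas, the Mcidas call being lost against the 1.5-fold minimum (adjusted p = 0.0674). Morn2 had 12, 4.13 and 6.94 CPM in the GemC1 libraries, 6.74, 7.49 and 7.49 CPM in the Mcidas libraries and 4.56, 2.43 and 1.74 CPM in the GFP libraries. GemC1 replicate 2 lay below GFP replicate 1 for Morn2, and its changes of 1.40 ± 0.39 in GemC1 (SE, adjusted p = 0.0601) and 1.31 ± 0.39 in Mcidas (adjusted p = 0.0964) did not pass, although 5 of 17 alternatives in GemC1 and 3 in Mcidas called it. Morn3 had 1.3, 0.711 and 1.28 CPM in the GemC1 libraries, 0.605, 1.92 and 2.21 CPM in the Mcidas libraries and 0.441, 0.737 and 0.51 CPM in the GFP libraries, with changes of 0.96 ± 0.51 in GemC1 and 1.47 ± 0.51 in Mcidas (adjusted p = 0.328 and 0.186). Genes on the other strand, Dhx57 and Gm43412, cover 20.6% and 31.7% of the exon lengths of Morn2 and Morn3. Morn4, a paralogue with a known role in photoreceptors and stereocilia, stood at 118 to 125 CPM in GemC1, 107 to 114 CPM in Mcidas and 104 to 118 CPM in GFP.

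Among 7 coiled-coil, WD repeat and other proteins, 6 were tested, of which 6 rose in GemC1 and 5 in Mcidas. Tppp3, of the tubulin polymerization promoting family, had 31.3, 36.3 and 26.4 CPM in the GemC1 libraries, 22.1, 51.9 and 67.3 CPM in the Mcidas libraries and 3.76, 3.02 and 3.84 CPM in the GFP libraries, with changes of 3.15 ± 0.34 in GemC1 (SE, adjusted p = 0.000156) and 3.73 ± 0.34 in Mcidas (adjusted p = 3.19e-05). Its paralogue Tppp, a protein of oligodendrocytes, had -0.60 ± 0.20 in GemC1 and 0.19 ± 0.20 in Mcidas (adjusted p = 0.113 and 0.799). Ccdc181, a microtubule-binding protein of mouse sperm, had 26.1, 33.7 and 30.2 CPM in the GemC1 libraries, 23.4, 27.9 and 34.8 CPM in the Mcidas libraries and 20.1, 18.6 and 19 CPM in the GFP libraries. It was the member with the highest level per exon length in GFP, and although neither factor group overlapped the GFP group, its changes were only 0.64 ± 0.15 in GemC1 (SE, adjusted p = 0.0292) and 0.57 ± 0.15 in Mcidas (adjusted p = 0.0545). The GemC1 call was lost in 6 of 17 alternatives, with the 1.5-fold minimum and without any 1 of the GFP libraries or GemC1 replicate 2 or 3, and 5 alternatives called it in Mcidas. Ccdc146, Wdr93 and Ccdc170 rose by 3.14 ± 0.60, 3.06 ± 0.62 and 4.27 ± 0.83 in GemC1 and by 4.37 ± 0.61, 3.67 ± 0.62 and 4.82 ± 0.83 in Mcidas. GemC1 calls were lost for Ccdc146 without the low-count filter (adjusted p = 0.0908), for Wdr93 without GFP replicate 1 or 2 (adjusted p = 0.0519 and 0.0722) and for Ccdc170 without GFP replicate 2 (adjusted p = 0.0615). Ccdc146 was at 3.73 in GemC1 and 4.97 in Mcidas without GFP replicate 2. Ccdc170 was at 5.79 in GemC1 and 6.34 in Mcidas without GFP replicate 1. Without GemC1 replicate 1 Ccdc170 was at 3.49 in GemC1, and without Mcidas replicate 2 Wdr93 was at 3.01 in Mcidas. Wdr49, a WD repeat protein, had 0.811, 2.91 and 0.789 CPM in the GemC1 libraries, 0.403, 1.25 and 1.86 CPM in the Mcidas libraries and 0.0294, 0.0982 and 0 CPM in the GFP libraries and rose by 4.94 ± 0.93 in GemC1 and 4.56 ± 0.94 in Mcidas, the Mcidas call being lost in 3 of 16 alternatives, without GFP replicate 1 or 3 or Mcidas replicate 3. Its values were 6.33 in GemC1 and 5.95 in Mcidas without GFP replicate 2, and 4.04 in GemC1 without GemC1 replicate 2. Tmem212 had 0 counts in all 9 libraries.

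**Figure D3:**
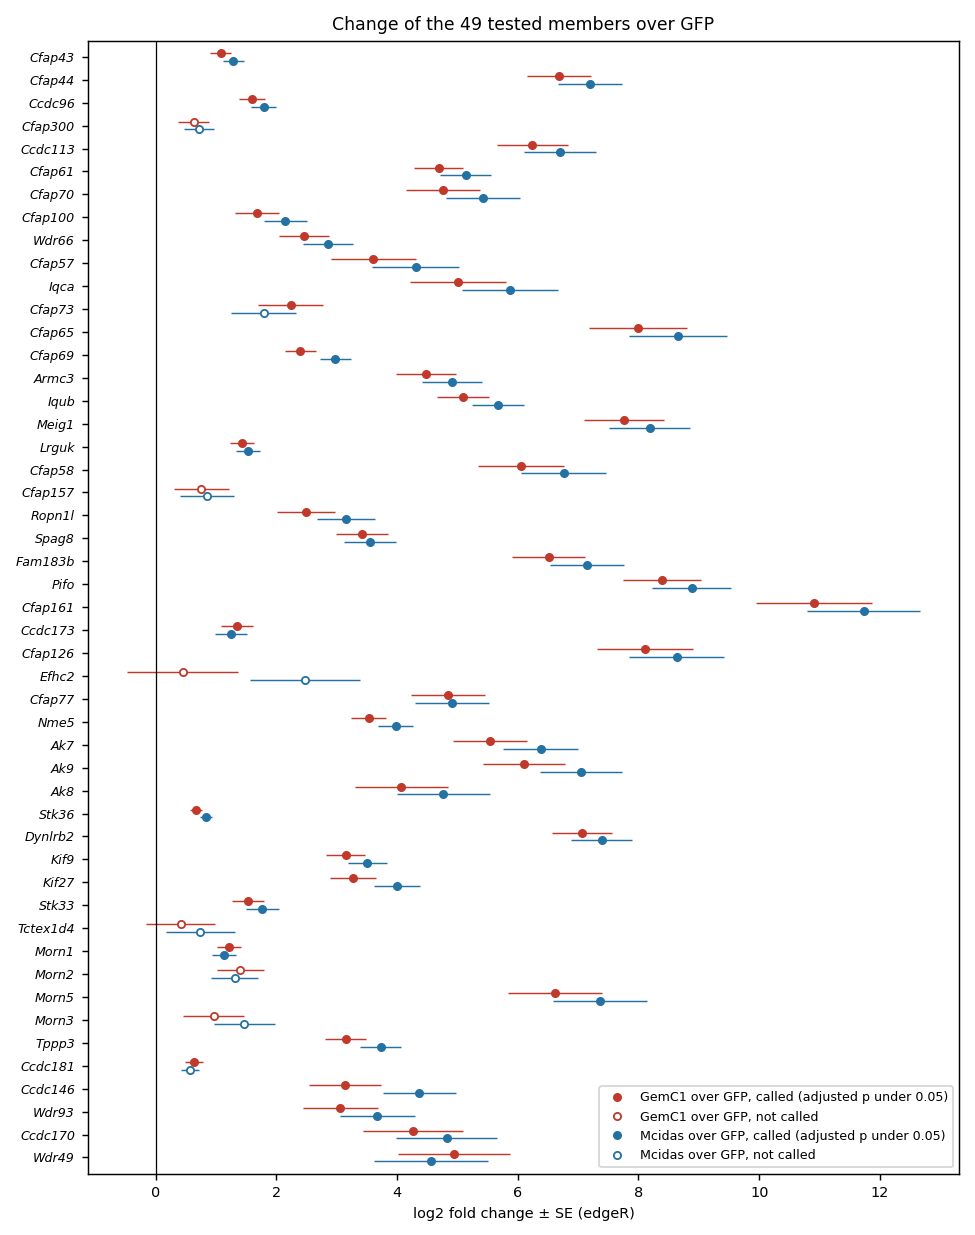
Log2 fold change ± SE (edgeR) of the 49 tested members in GemC1 over GFP and Mcidas over GFP, in the same order as the plot of levels. The SE is derived from the F value of the test. Filled points passed an adjusted p under 0.05 (43 in GemC1 and 41 in Mcidas) and open points did not. Fitted values of Cfap161, which had no GFP count, depend on the prior count and are no measure of its fold.

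The members differed in how far they were already transcribed without a factor. In GFP the 4 most abundant, Stk36, Cfap43, Ccdc181 and Cfap300, made up 67.2% of the summed CPM, whereas the 4 most abundant in GemC1 and in Mcidas (Stk36, Cfap43, Cfap44 and Tppp3) made up 31.5% and 29.8%. The 16 tested members with the highest GFP level per exon length (0.462 to 10.1 CPM per kb in GFP) had median levels of 6.38 CPM per kb in GemC1, 7.36 in Mcidas and 1.72 in GFP. The next 17 had median levels of 1.39, 2.25 and 0.229 CPM per kb in GemC1, Mcidas and GFP. The 16 lowest (at most 0.0695 CPM per kb in GFP) had 1.86, 3.18 and 0.0231 CPM per kb. Median log2 fold changes over GFP were 1.47 in GemC1 and 1.54 in Mcidas for the highest 16, 3.14 and 4.0 for the next 17, and 6.08 and 6.91 for the lowest 16, and fold and GFP level share the same GFP libraries. The order of levels per exon length was alike in the 2 factor groups (Spearman's rho 0.97 across 49 genes, which share exon lengths), and less so between GemC1 and GFP (0.54) or between Mcidas and GFP (0.42). After Dynlrb2, the highest levels per exon length in GemC1 were those of Fam183b (22.6 CPM per kb), Tppp3 (16.97), Ccdc181 (15.7) and Stk36 (14.98), and in Mcidas those of Fam183b (35.6), Tppp3 (25.5), Meig1 (18.2) and Nme5 (17.5).

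**Figure D4:**
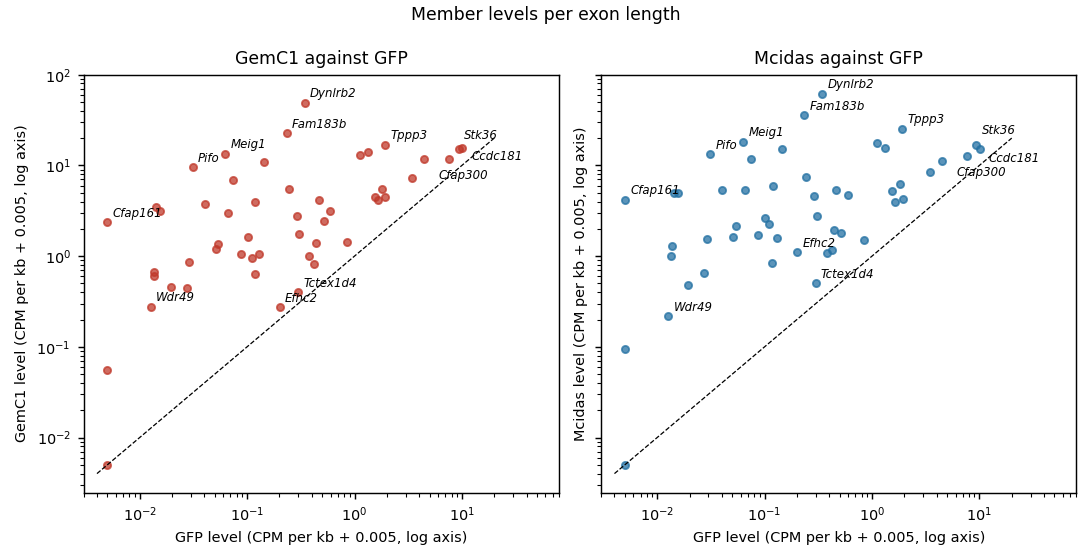
Mean level of each member in CPM per kilobase of exon in GemC1 (left) and Mcidas (right), on the vertical axes, against GFP on the horizontal axes, on log axes after adding 0.005. The dashed line marks equal levels. Members with GFP levels below 0.1 CPM per kb reach up to 13.5 CPM per kb in GemC1 (Meig1), and Stk36, Ccdc181 and Cfap300 lie nearest the line at the upper end.

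The direct comparison of the factors asked whether GemC1 and Mcidas raised the members to different levels. No member was called in GemC1 against Mcidas by edgeR, where 0.0153% of all genes were higher and 0.0358% lower, and none by DESeq2. At an unadjusted p under 0.05, edgeR had 0 members higher and 4 lower and DESeq2 3 lower, where edgeR had 6.37% of all genes higher and 6.67% lower. The groups overlapped for every tested member, where 9.07% of all genes lay wholly above and 7.64% wholly below. The median log2 fold change was -0.47, and 44 of 51 members had the lower mean in GemC1. The Mcidas libraries differed among themselves. Mcidas replicate 1 was the lowest of its group for 47 of 49 tested members, where it was the lowest for 33.3% of all genes, and it lay below all GemC1 libraries for 33 (67.3%), where 27.1% of all genes did so. Mcidas replicates 2 and 3 lay above all GemC1 libraries for 34 tested members, where 14.0% of all genes did so. Without Mcidas replicate 1 still 0 members were called, and 33 were lower in GemC1 at an unadjusted p under 0.05, compared with 1378 of all 20007 genes tested in that fit (6.89%). The 34 above and these 33 leave out the library lowest for most members, so shares over all genes are no even yardstick here. Mcidas itself and Foxj1 were also lowest in Mcidas replicate 1, with Mcidas at 387.5 CPM and Foxj1 at 95.8 CPM against 507.5 and 597 CPM and 170.2 and 183 CPM in replicates 2 and 3, and their part in the members' levels was not tested. File names give a year code that differs between the Mcidas libraries and the other groups, so whatever it marks and the Mcidas plasmid cannot be told apart.

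**Figure D5:**
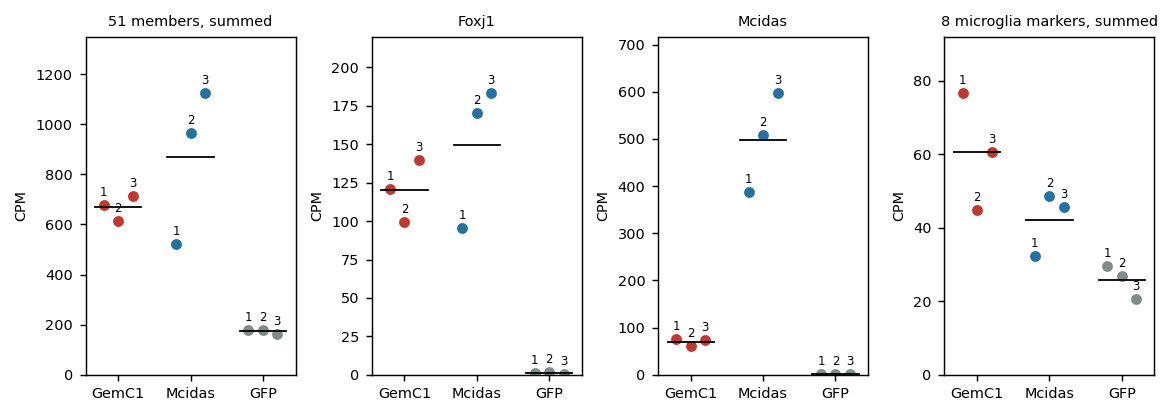
Level in CPM of the 51 members summed, of Foxj1, of Mcidas and of 8 microglia markers summed, in each library of the GemC1, Mcidas and GFP groups. Points are numbered by replicate and lines are group means. Mcidas replicate 1 is the lowest Mcidas library in all 4 panels, with a member sum of 520.3 CPM, and all GFP member sums lie at or below 179 CPM.

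Most tested genes of the rest of the axoneme rose as well, but not all. Tcte1 had -0.36 ± 0.17 in GemC1 and -0.11 ± 0.17 in Mcidas, and Tekt2 had 0.10 ± 0.13 and -0.04 ± 0.13. In 7 lists of axonemal genes, 72 of 77 genes were tested, and 57 rose in GemC1 and 60 in Mcidas, with 0 lower in either and medians of 3.21 and 3.64. By list, 11 of 12 tested genes of the outer arms and their docking, 11 of 12 of the inner arms, 6 of 9 of dynein arm assembly, 6 of 8 of the radial spokes, 8 of 10 of the central pair, 7 of 9 of the nexin-dynein complex and ruler and 8 of 12 tektins and inner proteins rose in GemC1, and 11, 12, 7, 7, 8, 7 and 8 of them in Mcidas. Of 10 ciliary regulators, 7 rose in GemC1 and 6 in Mcidas, the introduced genes included. Foxj1 had 121, 99.6 and 139.9 CPM in the GemC1 libraries, 95.8, 170.2 and 183 CPM in the Mcidas libraries and 1.06, 1.52 and 0.51 CPM in the GFP libraries. Rfx2, an RFX factor of multiciliated cells, rose by 2.27 ± 0.29 in GemC1 and 2.68 ± 0.29 in Mcidas, while Rfx3, a relative that also acts in primary cilia, had -0.20 ± 0.10 in GemC1 and 0.05 ± 0.10 in Mcidas (adjusted p = 0.31 and 0.91). Tctex1d2, a paralogue of Tctex1d4, rose by 0.74 ± 0.14 in GemC1 and 0.85 ± 0.14 in Mcidas.

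Markers of other cell types were measured beside these results. Choroid plexus epithelium carries motile cilia of its own. Its 6 markers summed to 3.12 to 9.06 CPM in GemC1, 2.995 to 7.02 CPM in Mcidas and 0.0246 to 0.600 CPM in GFP, with 2, 1 and 2 markers at 0 in those groups, and most of it in GemC1 and Mcidas was Clic6, which rose by 5.68 ± 0.90 in GemC1 and 5.63 ± 0.90 in Mcidas. Ttr, the defining transcript of that tissue, had 0 counts in the GemC1 libraries and at most 0.0288 CPM in any library. Markers of microglia, summed, were also higher in every GemC1 and every Mcidas library than in any GFP library. Of 8, 7 rose in GemC1 and 2 in Mcidas, none of the 8 was at 0 in a whole group, and their sum was 44.8 to 76.6 CPM in GemC1, 32.4 to 48.7 CPM in Mcidas and 20.7 to 29.6 CPM in GFP. The part of microglia in the members' levels was not tested. Endothelial markers summed to 0.0658 to 0.317 CPM in GemC1, 0.547 to 3.47 CPM in Mcidas and 0.639 to 1.62 CPM in GFP.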

How the data were processed

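RNA of sorted cells was made into cDNA from 10 ng with SMART-Seq v4 and into libraries with Nextera XT, per the labels' protocols, and neither kit marks strand. The authors deposited whole-number counts of reads for each Ensembl gene, not normalized. Tools named in the submitters' processing notes, without their roles, are HTSeq 0.5.3, STAR 2.5.2b and DESeq2 1.8.1, with the build mm10. No source used here gives the annotation release or counting settings.

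Counts of 9 libraries were fitted in 1 model with a term for group (edgeR 4.0.16, robust quasi-likelihood, TMM scaling, minimum count 10, minimum total 15). Adjusted p-values are Benjamini-Hochberg values over all genes tested, and CPM are TMM-scaled. Whether libraries of a group came from separate animals is not stated, and p-values then cover only the spread among these libraries, which may be technical. Exon lengths come from GENCODE M21 (GRCm38), as do gene positions, and promoters from RefSeq.

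The members and lists were chosen with earlier results of these data known. Members described singly were, in each role group, the 2 most abundant in the factor groups and that with the smallest adjusted p, members not called, filtered or at 0 in GFP, and the 5 highest and 5 lowest in GFP per exon length. The others were added to account for all members. DESeq2 1.42.0, other filters and scalings, a replicate block, a 1.5-fold minimum and each library left out were alternatives. Leaving out mitochondrially encoded genes was chosen after seeing the data. A few results are not reported here because they name withheld items.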

Additional observations from a re-analysis of the deposited data

How the results depend on the processing

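Across 17 alternatives, the members higher in GemC1 than GFP numbered 37 to 44 and those higher in Mcidas than GFP 38 to 45, with 0 lower in any, and GemC1 against Mcidas had 0 called in any. Leaving out 1 library gave 37 to 44 and 39 to 45. Of 43 members called in GemC1, 31 kept their call in all alternatives that tested them, and of 41 called in Mcidas, 35 did. The GemC1 log2 fold change of Efhc2 was -0.21 without GemC1 replicate 1, where the 2 remaining GemC1 libraries include the one with no count, and 1.03 without GemC1 replicate 2. Replicate numbers are not stated to pair the libraries. Deviations from the group mean correlated at -0.095 to 0.037 for same-numbered libraries and at -0.066 to 0.131 for others, which does not settle pairing. With the replicate block 44 members rose in GemC1, 42 in Mcidas and 0 differed between the factors. Over all genes, counts moved more. In GemC1 against GFP, 756 rose and 259 fell, against 1159 and 654 with DESeq2, 930 and 557 without the filter, 388 and 8 with the 1.5-fold minimum, 623 and 147 with the block, 589 and 162 without GemC1 replicate 1, 584 and 161 without GemC1 replicate 2, 631 and 163 without Mcidas replicate 2, 472 and 42 without GFP replicate 2 and 443 and 32 without GFP replicate 3. In Mcidas against GFP, 788 rose and 64 fell, against 1081 and 114 with DESeq2, 932 and 123 without the filter, 476 and 5 with the 1.5-fold minimum, 951 and 99 without Mcidas replicate 1, 557 and 29 without Mcidas replicate 2, 558 and 33 without Mcidas replicate 3, 612 and 37 without GFP replicate 1, 613 and 30 without GFP replicate 2 and 580 and 35 without GFP replicate 3. In GemC1 against Mcidas, 3 were higher and 7 lower, against 174 and 286 with DESeq2 and 66 and 129 without the filter, and 3 to 5 higher and 1 to 9 lower in the other alternatives. Differences under the 3-count floor could not be seen at this depth.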

Other observations

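In the GFP group, low members were highest in the same library more often than in the others. Of 29 tested members with a mean above 0 and under 1 CPM in GFP, 18 (62.1%) were highest in GFP replicate 2, 7 (24.1%) in GFP replicate 1 and 4 (13.8%) in GFP replicate 3. Over all 4128 genes tested in that range, the shares were 34.9%, 31.8% and 33.3%. Foxj1, the forkhead factor of motile cilia, was also highest in GFP replicate 2, at 1.52 CPM, with 1.06 CPM in GFP replicate 1 and 0.510 CPM in GFP replicate 3. The difference in shares was not tested.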
